A study of Rattus norvegicus with 2 samples.

Results

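The thioredoxin and peroxiredoxin genes were followed in bladder RNA of rats that had or had not been given an arsenic metabolite. They were 9 genes, chosen by symbol with earlier results of these arrays known, namely the thioredoxin reductases Txnrd1 and Txnrd2, the thioredoxins Txn1 and Txn2, the thioredoxin inhibitor Txnip, the sulfiredoxin Srxn1 and the peroxiredoxins Prdx1, Prdx5 and Prdx6. Each was read by 1 probe set, out of 22093 named genes on the array. Male rats of the inbred strain F344 received drinking water with 0 ppm (Control) or 200 ppm (DMA-tumor) dimethylarsinic acid (DMA), a methylated product of arsenic, from 10 weeks of age for 2 years, and both groups are labelled as 114 weeks old. The Control array held RNA mixed from 5 bladders, labelled as epithelium in one field and called bladder tissue in the methods, and the DMA-tumor array held RNA mixed from 6 bladder tumors per the series design, where the methods speak of 5. The tumors were taken as urothelial carcinomas by size, without histology. With 1 array a group there is no replicate error, no test is possible, and each difference below is a description of these 2 pools.

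The thioredoxin system passes electrons from NADPH to proteins. Thioredoxin reductase, a selenoprotein, reduces thioredoxin, and thioredoxin reduces peroxiredoxins, which break down hydrogen peroxide, as well as ribonucleotide reductase and methionine sulfoxide reductases. Txn1 and Txnrd1 work in the cytosol, and Txn2 and Txnrd2 in mitochondria. In mouse and human cells Txnrd1, Srxn1, Prdx1 and Prdx6 are known targets of NRF2, the transcription factor of the antioxidant response, and trivalent arsenicals are known to bind the thiol and selenol groups of such enzymes.

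Txnrd1 and Prdx1 were far higher in the DMA-tumor array, and Prdx6 was higher to a smaller extent. Prdx5 was lower, and the mitochondrial pair Txn2 and Txnrd2, cytosolic Txn1 and the inhibitor Txnip differed by less than 2-fold. Srxn1 had a low signal on both arrays. Values under 100 were removed in the methods; here, more loosely, a gene was kept with both its values when either array reached 100, which held for 8 of the 9 genes and for 12074 genes in all. A kept gene is called here by both criteria of the methods, as higher when the ratio and the Z-score each reach 2, and as lower when the ratio is 0.5 or less and the Z-score -2 or less. The Z-score was taken over the log2 differences of all kept genes (DMA-tumor minus Control, SD 1.02). The smallest difference that was called was 3.93-fold upward and 4.32-fold downward. Pairs of signals below are in arbitrary units and give Control first and DMA-tumor second. Among the members, 2 were called higher (Txnrd1 and Prdx1) and 0 were called lower, while 2.53% of all kept genes were called higher and 2.37% lower. By the ratio alone, 3 members were at least 2-fold higher and 1 was at least 2-fold lower, beside 8.87% and 10.5% of all kept genes. The members were picked with this contrast known, and nothing is read from these counts. Their log2 differences ranged from -1.03 to 6.58, and 4 of the 8 kept members were positive and 4 negative.

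**Figure D1:**
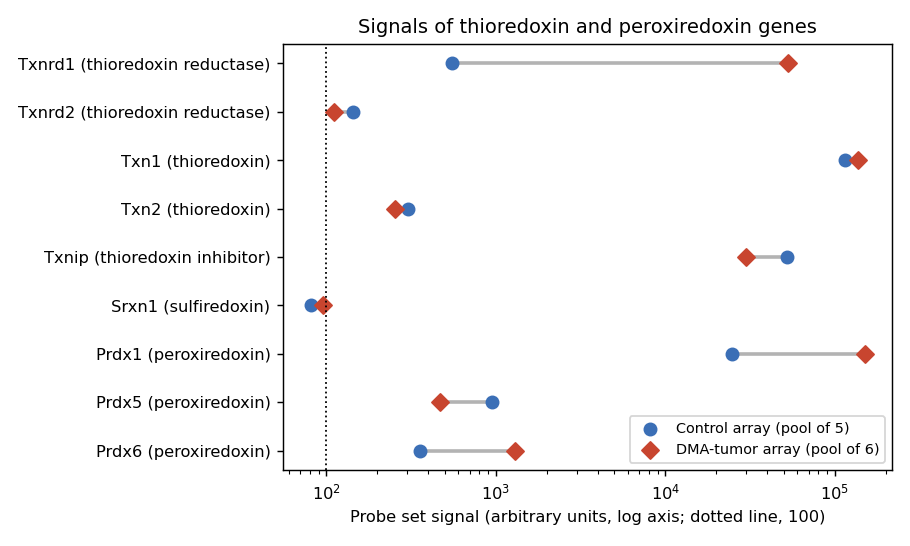
Probe set signal (arbitrary units, log axis) of the 9 genes in Control (blue circles, pool of 5) and DMA-tumor (red diamonds, pool of 6); the dotted line marks a signal of 100 and there are no error bars because each group has 1 array. Txnrd1 spans from 552 to 52826, while Txnrd2, Txn1, Txn2 and Srxn1 have nearly coinciding points.

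The start sites of 3 members are shown because these genes share NRF2 as a known regulator in mouse and human. Txnrd1 and Prdx1 were called higher. Srxn1 was under 100 on both arrays, where a difference was not measurable, so whether it differed from Txnrd1 and Prdx1 cannot be told. The sequences are from RefSeq (build GRCr8), cover 250 bases before the start and 10 after it, and read 5′ to 3′ on the strand of the gene. Capitals mark matches, on either strand, to the antioxidant response element core TGACNNNGC, the AP-1 site TGANTCA, the E-box CACGTG or the TATA box TATAAA. The Prdx1 window is chr5:135383656-135383915 (plus strand), that of Txnrd1, for the second of its 2 listed starts, is chr7:22755895-22756154 (minus strand), and that of Srxn1 is chr3:161064562-161064821 (plus strand).
Prdx1: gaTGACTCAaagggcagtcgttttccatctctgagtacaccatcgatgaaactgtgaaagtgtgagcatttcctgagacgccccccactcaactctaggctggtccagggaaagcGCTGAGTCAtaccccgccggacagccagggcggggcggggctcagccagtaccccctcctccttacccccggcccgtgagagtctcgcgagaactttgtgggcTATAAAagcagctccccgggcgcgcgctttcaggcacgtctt
Txnrd1: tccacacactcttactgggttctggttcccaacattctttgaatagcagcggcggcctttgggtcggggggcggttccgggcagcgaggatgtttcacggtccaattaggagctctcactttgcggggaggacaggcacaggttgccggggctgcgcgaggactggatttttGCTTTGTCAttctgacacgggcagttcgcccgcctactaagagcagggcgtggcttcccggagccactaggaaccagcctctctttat
Srxn1: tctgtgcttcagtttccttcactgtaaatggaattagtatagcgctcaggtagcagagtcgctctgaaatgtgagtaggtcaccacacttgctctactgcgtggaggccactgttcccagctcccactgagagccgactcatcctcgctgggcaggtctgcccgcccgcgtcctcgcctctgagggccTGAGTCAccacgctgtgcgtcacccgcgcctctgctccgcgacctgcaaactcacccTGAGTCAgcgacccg

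In the Prdx1 window, the antioxidant response element core lies on the opposite strand, with its first base 135 bases before the start (position -135), and it overlaps an AP-1 match at -133. A further AP-1 match begins at -248, and a TATA box at -32. The Txnrd1 window holds a single capitalised stretch, an antioxidant response element core at -78 on the opposite strand, and the window of the other Txnrd1 start (chr7:22764842-22765101, minus strand) holds none of the motifs. Srxn1 has AP-1 matches at -62 and -5 and no match to the core as spelled here. The match at -5 is followed by gc, so this stretch differs from the core only in reading TGAG in place of TGAC. Other spellings of the core were not searched. RefSeq windows were matched for 7 of the 9 genes (not Txnip and Prdx6), 8 windows in all, each searched from 250 bases before to 50 after the start. The core was found for 3 of these 7 genes, the third being Prdx5, which was lower in the tumors and holds it at -1. It was present in 12.1% of all 33469 windows and in 14.2% of the 10700 windows of kept genes. The AP-1 site was found for 2 of the 7 genes (7.33% of all windows), the TATA box for 2 (14.2%, the second being Txn1) and the E-box for 0 (6.42%). A match is a stretch of letters and not a measured binding site.

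The signals of Txnrd1, the cytosolic thioredoxin reductase, were 552 in controls and 52826 in tumors. The latter was 95.7-fold higher (log2 difference 6.58, Z-score 6.53), and 8 of the 12074 kept genes had a larger difference in this direction. It stayed between 6.13 and 6.58 under every alternative scaling and filter tried. Txnrd2, the mitochondrial reductase, had signals of 144 and 111, a log2 difference of -0.37. The third family member, Txnrd3, known for its part in mouse testis, had 197 and 183 (-0.11). Thus of the 3 reductase genes, 1 was called higher and the other two differed by less than 1.3-fold, at signals not far above 100. The kept genes closest to Txnrd1 by Euclidean distance of log2 signal over the 2 arrays were Mir147, Adh7, Fn1 and Abcc4, at distances of 0.90 to 1.42. This is a likeness over 2 values only, in which probe sets of unequal brightness are set on the same scale.

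Because thioredoxin reductases carry selenocysteine, the genes that make and insert this amino acid were examined as a list. Of 8 such genes, 7 were kept and 0 were called or differed by 2-fold, with a median log2 difference of -0.14 against -0.08 over all kept genes. The largest differences were those of the seryl-tRNA synthetase gene Sars1 (4280 and 2605, log2 difference -0.72), Trnau1ap (-0.43), the selenocysteine elongation factor gene Eefsec (-0.28) and Sepsecs (-0.14), which encodes the enzyme of the last step of selenocysteine synthesis. Sephs2, which encodes the enzyme that makes the selenium donor, had signals under 100 on both arrays, at 65.4 and 41.3. The 7 kept genes of this list were thus within 2-fold, as were 80.6% of all kept genes.

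Txn1, the cytosolic thioredoxin, was bright in both pools, at 115270 and 137672. This is a log2 difference of 0.26, but its direction depended on how the arrays were scaled, at -0.80 after quantile normalization and -0.66 with a loess trend on signal removed. Txn2, the mitochondrial thioredoxin, had signals of 302 and 254 (-0.25). Neither thioredoxin reached 2-fold in either direction. Among 7 listed thioredoxin-like genes, 6 had a probe set, 5 were kept and 0 differed by 2-fold (median 0.08). Their largest differences were in Txndc17, a small cytosolic oxidoreductase gene (526 and 813, log2 difference 0.63), Txnl1, which encodes a thioredoxin-like protein bound to the proteasome (0.54), the nucleoredoxin gene Nxn (-0.36) and Txndc9 (0.08).

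**Figure D2:**
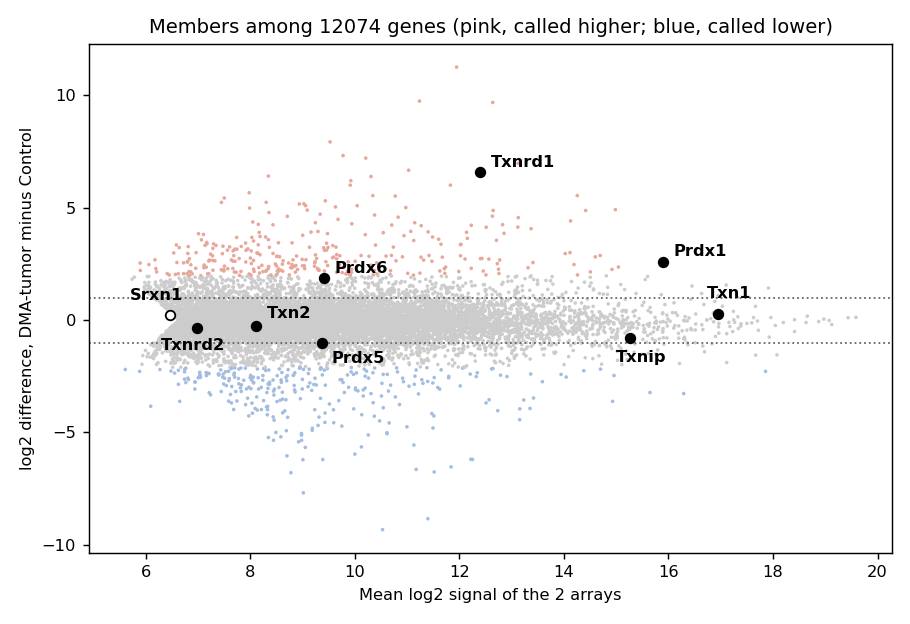
Log2 difference (DMA-tumor minus Control) against the mean log2 signal of the 2 arrays for the 12074 kept genes (pink, called higher; blue, called lower; grey, not called), with the kept members in black and Srxn1, which was not kept, as an open circle; dotted lines mark 2-fold. Txnrd1 at 6.58 and Prdx1 at 2.60 lie among the called genes, Prdx6 at 1.86 lies just under them, and the other members lie within or near the dotted lines.

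Txnip, the alpha-arrestin that binds and inhibits thioredoxin and limits glucose uptake, went from 52507 in controls to 29754 in tumors. The tumor signal was 1.76-fold lower (log2 difference -0.82), and it was lower by over 2-fold after quantile normalization (-1.51) or loess (-1.49), without being called. Its alpha-arrestin relatives went both ways. Arrdc1 had signals of 1779 and 1474 (-0.27). Arrdc4, whose product is like Txnip a regulator of glucose uptake, had signals of 690 and 2133 (3.09-fold higher), and Arrdc3, an adaptor for the ubiquitination of membrane receptors, had 1257 and 3556 (2.83-fold higher). Neither of these last was called, and Arrdc2 and Arrdc5 were under 100 on both arrays. Txnip and Arrdc4 are both known targets of the glucose-sensing factors MondoA (Mlxip) and ChREBP (Mlxipl), of which Mlxip had a log2 difference of -0.58, their partner Mlx one of 0.59, and Mlxipl signals of 33.2 and 29.1, under 100 on both arrays. Of the 8 genes in this list 5 were kept, 2 were at least 2-fold higher and 0 lower, and the median of 0.59 became -0.14 once the other 3 were let in by a lower limit on signal. The genes nearest to Txnip in log2 signal over the 2 arrays were Capns1, Rpph1, Slc6a8 and Actn4, at distances of 0.10 to 0.25.

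Srxn1, the sulfiredoxin that repairs overoxidised peroxiredoxins, gave 80.8 and 95.6. Both lie under 100, so the gene was not kept, no fold is given, and a difference was not measurable at this signal. Odorant and pheromone receptor genes, which should be silent in bladder, give a guide to noise here: over the central 95% of 1276 of them, the log2 difference ran from -0.81 to 0.52, and the 0.24 of Srxn1 lies inside that span. The small differences of Txnrd2 and Txn2 lie inside it too, though at somewhat brighter signals.

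The peroxiredoxins were divided. Prdx1, the most widely expressed cytosolic enzyme of the family, had signals of 24770 and 150145. The tumor signal was 6.06-fold higher (log2 difference 2.60, Z-score 2.62, 180th of the 12074 genes counted from the highest upward difference). Removal of a loess trend brought the difference to 1.84 and ended the call (Z-score 1.97), while after quantile normalization it was 1.76 and still called (Z-score 2.03). The rat genome also holds 8 listed copies of Prdx1, 7 of them pseudogenes, and 3 of the 8 have a probe set of their own. The copy Prdx1l1 had signals of 9369 and 65846 (7.03-fold higher), Prdx1-ps2 had 280 and 240, and Prdx1-ps5 was under 100 on both arrays. How far the probes of Prdx1 and Prdx1l1 read the same RNA was not tested.

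Prdx6, the enzyme of the family that uses glutathione in place of thioredoxin and that also has phospholipase activity, had signals of 358 and 1299. It was 3.63-fold higher (log2 difference 1.86), just short of a call at a Z-score of 1.89, and was called under 4 alternatives that changed the spread of all genes rather than its own value. Prdx6 has 3 listed pseudogenes, and how far these reach its probe set was not tested. Prdx5, which is found in mitochondria, peroxisomes and cytosol, had signals of 952 and 466 and was 2.04-fold lower (log2 difference -1.03). The 3 peroxiredoxins outside the members did not reach 2-fold. Prdx2, abundant in red blood cells, had signals of 1442 and 1133 (-0.35), mitochondrial Prdx3 had 2525 and 3320 (0.39), and Prdx4, an enzyme of the endoplasmic reticulum, had 456 and 448 (-0.02). Of the 6 peroxiredoxins of the rat, 1 was called higher, 2 were at least 2-fold higher and 1 was at least 2-fold lower (Prdx5, Z-score -0.95). Of all kept genes, 2.53% were called higher, 8.87% were at least 2-fold higher and 10.5% at least 2-fold lower. Prdx1, Prdx5 and Prdx6 were picked with this contrast known, and nothing is read from these counts. The red cell genes Hba-a1 and Hbb-b1 had log2 differences of -0.17 and -0.80. Of the 12074 kept genes, 6713 had negative differences, and the part of red cells in the Prdx2 value was not tested.

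Enzymes of mitochondria were also looked at together. Of 7 genes for mitochondrial thiol and oxygen enzymes (Txnrd2, Txn2, Prdx3, Glrx2, Glrx5, Msrb2 and Sod2), 0 were called, 0 reached 2-fold, and the differences lay between -0.47 and 0.44. Of all kept genes, 80.6% were likewise within 2-fold. This set was chosen after the values were seen and is not a full list of mitochondrial enzymes. Nothing is therefore read from these counts. Prdx5, which mitochondria share with other compartments, was left out of this set and was 2.04-fold lower. The signals of the 7 genes were low or moderate, the brightest being Prdx3.

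**Figure D3:**
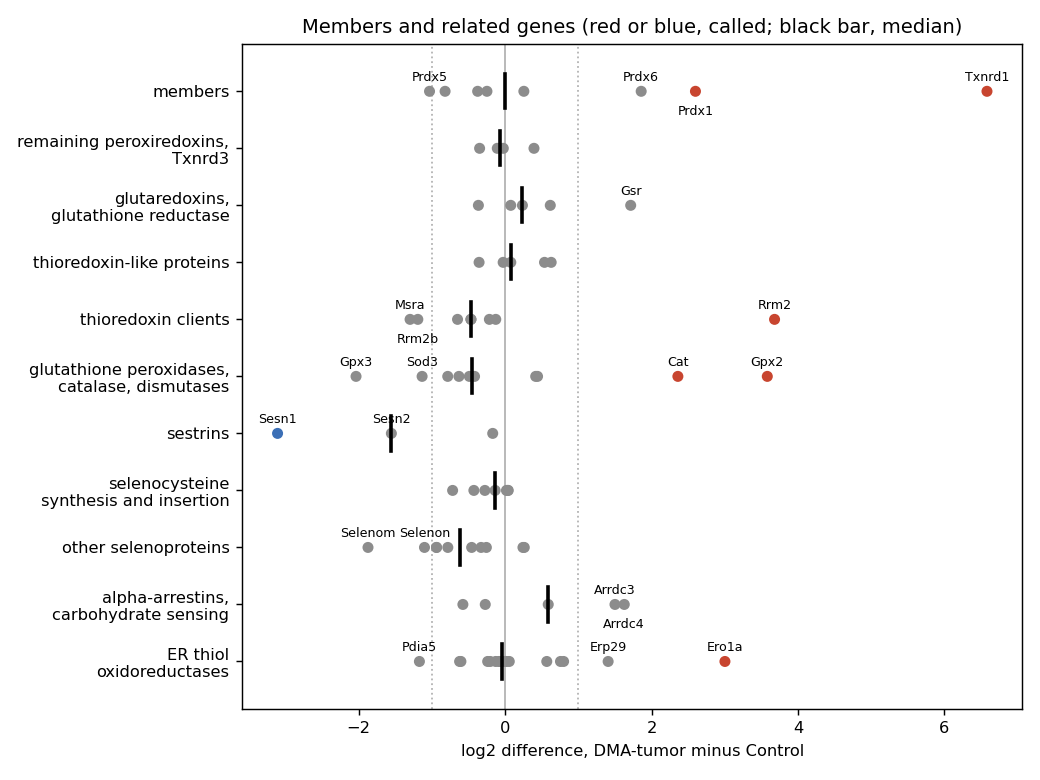
Log2 difference (DMA-tumor minus Control) of each kept gene in the members and in 10 related lists, 1 point a gene; red points were called higher, blue points called lower, grey points neither, black bars are medians, and genes of at least 2-fold are named. Most points lie between the dotted 2-fold lines, and Txnrd1, Rrm2, Gpx2, Ero1a, Prdx1 and Cat lie furthest to the right.

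The genes around the system were counted over 10 lists of related genes. Of 83 genes with a probe set, 73 were kept, of which 4 were called higher and 1 lower, and 8 were at least 2-fold higher and 9 at least 2-fold lower. These are 5.48%, 1.37%, 11.0% and 12.3% of the 73, beside 2.53%, 2.37%, 8.87% and 10.5% of all kept genes. The median of the 73 was -0.14, and that of all kept genes -0.08. The same shares of all kept genes stand beside the counts of each single list. The lists were chosen with earlier results known, and nothing is read from their counts.

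Glutathione and its partner enzymes form the parallel route for thiol reduction. Gsr, the glutathione reductase, had signals of 10005 and 32851 and was 3.28-fold higher (log2 difference 1.72) without being called. The glutaredoxin gene Glrx had 108206 and 165977 (0.62), Glrx2 had a difference of 0.24 and the iron-sulfur cluster glutaredoxin Glrx5 one of -0.36. Of the 5 genes in this list, 0 were called, and the median of 0.24 turned to -0.10 after quantile normalization. Among the reductases that feed the 2 routes from NADPH, Txnrd1 was called higher and Gsr was higher without a call. Txnrd2 (-0.37) and Txnrd3 (-0.11) were not higher. The small proteins these reductases supply, directly or through glutathione, differed by less than 2-fold.

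A list of 8 genes held those for proteins that thioredoxin reduces or binds and for the subunits of ribonucleotide reductase. Of these, 1 was called higher (the subunit gene Rrm2) and 0 lower, with a median of -0.47. Rrm2, the growth-dependent subunit of ribonucleotide reductase, which makes DNA precursors, went from 59.8 to 766, a fold of at least 7.66 with the Control value raised to 100. The large subunit gene Rrm1 is in the same list with 5707 and 4130 and was not called. Rrm2b, the subunit used outside S phase and induced by p53, had 2574 and 1127 (2.28-fold lower). The methionine sulfoxide reductase gene Msra was 2.46-fold lower, at 303 and 123, and Msrb1, a selenoprotein of the same function, had a log2 difference of -0.65. The 2 small subunits of ribonucleotide reductase therefore differed in opposite directions.

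Other enzymes that remove peroxide and superoxide went both ways. Of 10 genes, 2 were called higher and 0 lower, 2 were at least 2-fold higher and 2 at least 2-fold lower, and the median was -0.45. Of all kept genes, 2.53% were called higher and 2.37% lower, and 8.87% were at least 2-fold higher and 10.5% at least 2-fold lower. Catalase (Cat) had signals of 14905 and 76498 (5.13-fold higher). Gpx2, the epithelial glutathione peroxidase, had 94.3 and 1128 (at least 11.3-fold higher, with the Control value raised to 100). The secreted enzymes were lower, Gpx3 at 919 and 224 (4.10-fold, just short of a call) and the extracellular superoxide dismutase Sod3 at 693 and 316 (2.19-fold). Of the 3 sestrins, stress-induced regulators of growth that have been linked to peroxiredoxin repair, Sesn1 was called lower (3369 and 391, 8.62-fold), Sesn2 was 2.93-fold lower at 4046 and 1379, and Sesn3 had 17741 and 15780 (-0.17).

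The pools also differed in the tissue they held, which stands beside every difference above. All 12 urothelial marker genes were above 100 in controls and 11 of them in tumors, where Krt20 was at 77.9, with a summed marker signal of 2283571 in controls and 853635 in tumors. Of these 12 markers, 9 were at least 2-fold lower in tumors and 3 were called lower (Krt20, Krt18 and Upk2), and 0 were at least 2-fold higher. The uroplakin genes Upk2 and Upk1a, brightest in controls, went from 523348 to 107621 (4.86-fold lower) and from 472400 to 161397 (2.93-fold lower). The summed signal of 10 fibroblast markers went from 161088 to 1693, and that of 8 smooth muscle markers from 57068 to 4598. That of 8 macrophage markers went from 3235 to 1685, with 4 of them at least 2-fold lower and 1, Cd14, 2.04-fold higher. That of 6 T cell markers, 3 of them (Cd3d, Cd3e and Cd8a) under 100 on both arrays, went from 4075 to 610. The sums of 3 further lists differed less. Of these, 6 endothelial markers summed to 2359 and 3297, with 3 of them (Kdr, Flt1 and Vwf) at least 2-fold higher and 0 at least 2-fold lower. The 5 red cell markers summed to 103290 and 90508, mostly from Hba-a1 (99913 and 88507). The 6 adipocyte markers summed to 17805 and 22197. The adipocyte sum rests on Fabp4 (16461 and 21852), as the other 5 adipocyte markers had lower signals in tumors, Adipoq and Lpl being called lower and Plin1 and Cidec under 100 on both arrays. None of the markers was at 0. The summed fibroblast, smooth muscle and urothelial signals were thus 95.1-fold, 12.4-fold and 2.68-fold lower in the tumor pool. Their part in the values of the members and of the related genes was not tested. In such mixed tissue, fewer cells of a type and less RNA per cell cannot be told apart.

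**Figure D4:**
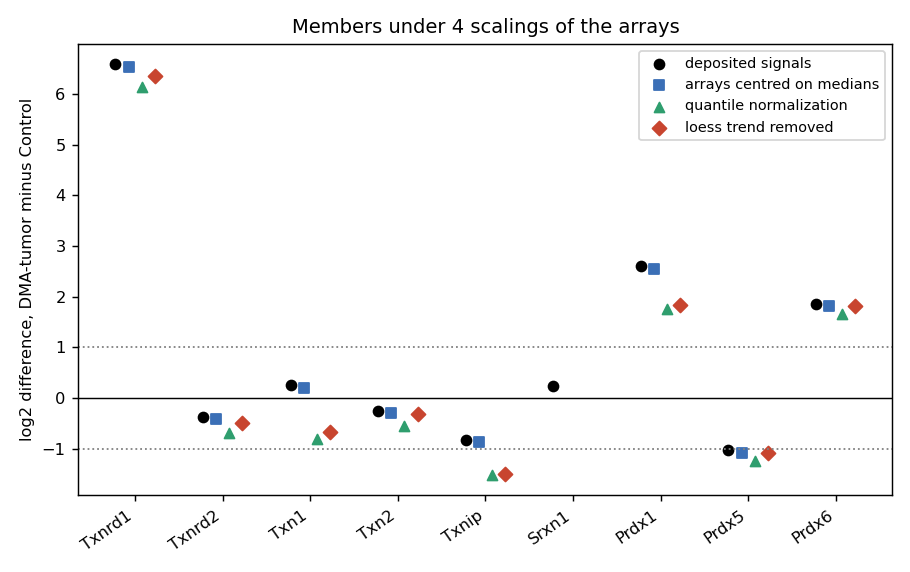
Log2 difference (DMA-tumor minus Control) of each member with the deposited signals (black circles), after centring the arrays on their medians (blue squares), after quantile normalization (green triangles) and after removal of a loess trend (red diamonds); Srxn1, not kept, is drawn for the deposited signals only, and dotted lines mark 2-fold. Txnrd1 stays above 6, Prdx1 drops from 2.60 to 1.76 and 1.84, and Txn1 crosses 0.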

How the data were processed

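RNA pools of 2 groups were compared, 1 array each. The authors deposited an intensity for each of 68842 probe sets, unlogged (5.60 to 820532). Per the labels, RNA was labelled with a whole-transcript kit; RMA and Expression Console 1.4.1 are named in the processing notes, whereas the methods name another array and a global median normalization. Column medians (50.6 and 52.3) and 99th percentiles (83299 and 171248) differ, so the authors' normalization is unsettled. At least 100 was reached by 33.0% and 36.0% of probe sets. No test could be made with 1 array a group, and columns of other series numbered 0.

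Here log2 was taken, with no further scaling. In the platform annotation 23446 probe sets had 1 symbol, 505 several and 44891 none listed (22077 gene IDs matched RefSeq). For genes with several, the probe set of highest mean log2 signal was used. Folds against a signal under 100 are lower bounds with it raised to 100. The methods do not state the reference set of the Z-score.

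The members and lists were chosen with earlier results of these data known. Named were the members, Prdx2, Prdx3, Prdx4, Txnrd3, called genes and up to 4 largest differences in each list, leading markers, and the 4 genes nearest to Txnrd1 and Txnip. Rrm1, Sephs2, Mlxipl, P4hb, Arrdc1, Arrdc2, Arrdc5, Adipoq, Plin1, Cidec, Krt20, the Prdx1 copies and the mitochondrial set were added after their values were seen. The rule for calls was checked on simulated data with planted differences far beyond its limits, which leaves genes near those limits unchecked. Alternatives were 3 other filters (none, 100 on both arrays, 32 on either), centring, quantile normalization, loess (span 0.3), the mean of probe sets, and signals raised to 100. Software was Python 3.11.15 with numpy 2.4.6, matplotlib 3.10.9, pandas 2.3.3 and statsmodels 0.14.6.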

Additional observations from a re-analysis of the deposited data

How the results depend on the processing

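No alternative made a called member change direction. Txnrd1 was called under all of them, and Prdx1 under all except loess, which left 1 member called higher and 2 members (Prdx5 and Txnip) at least 2-fold lower; quantile normalization also left 2 at least 2-fold lower. These 2 scalings shifted the median of all genes by -0.11 (loess) and -0.26 (quantile) on the log2 scale; relative to these shifts the sign of Txn1 still turned, and the cause was not tested. Prdx6 was called with no filter, with either other filter and with signals raised to 100. In the related lists, 7 genes were called higher with no filter, and 3 lower with no filter or a limit of 32, against 2 lower where both arrays had to reach 100 or signals were raised to 100; the spread of all genes, which sets the Z-score, is narrower in each of these. After loess, or where both arrays had to reach 100, 3 genes of the related lists were called higher in place of 4. No paired analysis was possible because each group has 1 array. For the same reason no array could be left out, and no difference here has a replicate check. Signals near 100 (Txnrd2, Srxn1, Txnrd3) limit what could be seen of these genes.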

Other observations

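Thiol oxidoreductases of the endoplasmic reticulum and their partners were counted above among the related lists without being described. Many, but not all, have the protein fold of thioredoxin and handle disulfide bonds in secreted proteins. Of 18 listed genes, 17 had a probe set and 16 were kept, of which 1 was called higher and 0 lower (median log2 difference -0.04). Ero1a, the oxidase that recharges protein disulfide isomerase and is known to respond to low oxygen, had signals of 6276 and 50287 (8.01-fold higher). Its relative Ero1b had 135 and 235 (0.80), the chaperone gene Erp29 113 and 299 (2.65-fold higher) and Pdia5 493 and 219 (2.25-fold lower), none of them called. The other 12 kept genes, the main disulfide isomerase P4hb among them at 0.76, were within 2-fold.

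Of 14 other selenoprotein genes, 10 were kept, 0 were called and 2 were at least 2-fold lower, with a median of -0.62. Selenom had signals of 246 and 67.3 (at least 2.46-fold lower, with the tumor value raised to 100), and Selenon, whose loss causes a muscle disease in humans, had 1714 and 799 (2.14-fold lower). The selenium transport protein gene Selenop and the membrane protein gene Selenos both had a log2 difference of -0.94. Over all lists, the selenoprotein genes Txnrd1 and Gpx2 were called higher and 0 were called lower, with Gpx3 4.10-fold lower and not called. Of all kept genes, 2.53% were called higher and 2.37% lower. Txnrd1 was picked with this contrast known, and nothing is read from these calls. Smooth muscle, fibroblast and most urothelial markers were lower in the same array, and their part in these values was not tested.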
